A study of Mus musculus with 3 samples.

Results

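The interferon-inducible GTPases studied here are 10 mouse genes of the guanylate-binding protein (GBP), immunity-related GTPase (IRG) and Mx families: Gbp2, Gbp3, Gbp4, Gbp6, Irgm1, Irgm2, Igtp, Iigp1, Mx1 and Mx2. They were found by taking every probe set that the platform annotation assigned to exactly 1 of these genes, which gave 11 probe sets for 9 of the 10 genes, among 17097 genes and 45141 probe sets in all. No probe set was annotated to Gbp6, so it was not analysed here. Expression had been measured on 3 arrays of bone-marrow mesenchymal progenitors, named PaS+ in the labels, from C56Bl/6 mice (strain as spelled there) aged 8 weeks. The groups were progenitors carrying a lentiviral short hairpin RNA (shRNA) that targets HIF-2α, progenitors carrying one that targets HIF-1α and progenitors carrying a control shRNA, with 1 array each. HIF-1α and HIF-2α are the subunits through which hypoxia-inducible factors respond to oxygen. All cells were sorted, grown for 7 days in 1% oxygen in MesenCult medium, transduced overnight and collected 4 days after transduction, so low oxygen and lentivirus were common to all arrays. No shRNA had a replicate array, so a difference could be neither tested nor set against a spread between cultures, and every comparison below is of single arrays. The sources used here name no hairpin sequence, no second hairpin for a target and no untransduced culture.

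These GTPases are a branch of cell-autonomous immunity that interferons switch on in most nucleated cells, stromal cells included. GBP proteins bind GTP, assemble on the membranes of vacuoles and bacteria and help open them. IRG proteins do the same work in mice, where a regulatory group (Irgm1, Irgm2 and Igtp) sits on the cell's own membranes and keeps effector IRG proteins such as that of Iigp1 from attacking them. Mx proteins are dynamin-like GTPases that block virus replication. Type I interferon acts mainly through the interferon-stimulated response element (ISRE), which a complex that includes IRF9 binds, and interferon-γ acts mainly through the γ-activated site (GAS).

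The promoters of the members are shown first because most members with a probe set were brighter on both hairpin arrays and because both interferon routes are read at these short elements. RefSeq promoters of build GRCm38.p6, covering 250 bases before and 50 bases after the annotated start, were matched for 5 of the 10 genes, with 2 start sites for Gbp3. The ISRE core was searched as GAAA, any 2 bases and GAAA, and the GAS core as TTCNNNGAA, both on either strand. The ISRE core was found in promoters of all 5 matched genes, and in 3.44% of 32851 promoters of the same length. Of the Gbp3 promoters, the one with the upstream start site held it and the other did not. Each stretch below is the strand of the gene, 5′ to 3′, and ends before the start site, with the letters that match the ISRE core in capitals.
Gbp2: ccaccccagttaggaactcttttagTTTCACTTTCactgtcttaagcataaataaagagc
Gbp3: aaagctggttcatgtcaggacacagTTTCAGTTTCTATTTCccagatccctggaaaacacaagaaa
Irgm1: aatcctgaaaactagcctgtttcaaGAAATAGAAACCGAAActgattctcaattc
Irgm2: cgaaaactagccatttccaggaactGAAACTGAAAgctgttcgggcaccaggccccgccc
Igtp: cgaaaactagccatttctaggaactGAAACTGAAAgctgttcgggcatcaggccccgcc

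The Gbp2 stretch lies at chr3:142620579-142620638 on the plus strand, and the Gbp3 stretch at chr3:142559974-142560039 on the plus strand. That of Irgm1 is chr11:48871421-48871475 on the minus strand. Irgm2 is shown at chr11:58214888-58214947 and Igtp at chr11:58199497-58199555, both on the plus strand. The Gbp3 and Irgm1 stretches each hold 2 overlapping ISRE cores, and the others hold 1. The Irgm2 and Igtp stretches, aligned at the ISRE core, are identical at 57 of 59 bases. Both also hold a GAS core a few bases before the ISRE core and not overlapping it (TTCCAGGAA in Irgm2 and TTCTAGGAA in Igtp), which no other matched promoter of a member holds, against 8.30% of all promoters. Both cores together were in 0.454% of all promoters. A match is a description of the letters in the window and not of binding.

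Values are RMA intensities on a linear scale, as the authors deposited them. A probe set is called above the nonspecific level when it exceeds 3.47, the highest of 23 nonspecific control probe sets on any array. Of the targeted genes, Hif1a read 332.4 on the array labelled HIF-2α, 332.4 on the array labelled HIF-1α and 352.1 on the control array. Its level did not separate the hairpins, so no loss particular to the array labelled HIF-1α was seen. Epas1, which encodes HIF-2α, read 3.21 (HIF-2α), 9.44 (HIF-1α) and 5.09 (control), where each bracket names the array by its label, as it does below. The value of 3.21 is under the nonspecific level, so the size of its difference from control was not measured. These are the brighter probe sets, and the other probe set of each gene was under that level on all arrays. Whether either hairpin lowered its target was not tested. The arrays are therefore called by their labels throughout, and each direction rests on those labels. Pdgfra, one of the genes the PaS+ sort is named for, was above the nonspecific level on all arrays, as were 10 of the 11 mesenchymal markers with a probe set. The other gene of the sort, Ly6a, had no probe set annotated to it alone.

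The GBP genes differed widely among themselves. Gbp2 (Entrez gene 14469, chromosome 3), whose protein coats vacuoles and bacteria, exceeded the nonspecific level throughout. Its brighter probe set, of a kind that can detect related transcripts, read 164 on the array labelled HIF-2α, 200.2 on the array labelled HIF-1α and 85.0 on the control array. The other probe set read 120.3 (HIF-2α), 139.8 (HIF-1α) and 63.3 (control). Both therefore put the array labelled HIF-1α highest and the control array lowest. Against control, Gbp2 was 1.93-fold higher on the array labelled HIF-2α and 2.36-fold higher on the array labelled HIF-1α by the brighter probe set, and 1.90-fold (HIF-2α) and 2.21-fold (HIF-1α) by the other. In such bulk RNA fewer expressing cells and less RNA in each cell cannot be told apart.

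Gbp3 (Entrez gene 55932, chromosome 3), in the same gene cluster as Gbp2, had the opposite order of the hairpins and a far larger difference. It read 87.7 on the array labelled HIF-2α, 48.4 on the array labelled HIF-1α and 4.64 on the control array, just over the nonspecific level. It was 18.9-fold higher than control with the HIF-2α hairpin and 10.4-fold higher with the HIF-1α hairpin. Gbp4 (Entrez gene 17472, chromosome 5) read 1.05 on each array, equal to the last digit and under the nonspecific level, so no fold can be given for it.

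The regulatory IRG genes, all on chromosome 11, were higher on both hairpin arrays. Irgm1 (Entrez gene 15944), whose protein sits on Golgi and lysosomal membranes and is needed for resistance to several intracellular pathogens in mice, read 102.2 on the array labelled HIF-2α, 65.3 on the array labelled HIF-1α and 8.21 on the control array. That is 12.4-fold (HIF-2α) and 7.95-fold (HIF-1α) above control. Irgm2 (Entrez gene 54396), a Golgi-bound regulator, read 41.4 (HIF-2α), 37.8 (HIF-1α) and 4.67 (control), 8.87-fold (HIF-2α) and 8.09-fold (HIF-1α) above control. Igtp (Entrez gene 16145), also called Irgm3 and found at the endoplasmic reticulum, read 45.2 (HIF-2α), 24.8 (HIF-1α) and 6.27 (control), 7.21-fold (HIF-2α) and 3.95-fold (HIF-1α) above control. All 3 genes were thus higher on each hairpin array and above the nonspecific level on the control array. Each read highest with the HIF-2α hairpin. For Irgm2 the log2 difference between the hairpin arrays was 0.13, under the pooled SD of 0.15 between probe sets of 1 gene, so its order is not resolved.

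Iigp1 (Entrez gene 60440, chromosome 18), also known as Irga6, encodes an effector IRG that loads onto the vacuole of Toxoplasma gondii. It was under the nonspecific level on the control array by both of its probe sets, so its differences from control are lower bounds against 3.47. The brighter probe set read 59.5 on the array labelled HIF-2α, 28.4 on the array labelled HIF-1α and 1.65 on the control array. It was at least 17.1-fold higher than control with the HIF-2α hairpin and at least 8.19-fold higher with the HIF-1α hairpin. The dimmer probe set read 21.1 (HIF-2α), 12.0 (HIF-1α) and 1.88 (control), which gives at least 6.09-fold (HIF-2α) and at least 3.46-fold (HIF-1α). The probe sets therefore gave the same order of arrays and unequal bounds.

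The Mx genes stayed near or under the nonspecific level. Mx1 (Entrez gene 17857, chromosome 16), whose mouse protein restricts influenza virus in the nucleus, read 0.926 on the array labelled HIF-2α, 0.926 on the array labelled HIF-1α and 0.984 on the control array. Mx2 (Entrez gene 17858, chromosome 16) read 3.75 on each hairpin array and 3.03 on the control array, at least 1.08-fold higher on each. Both genes are annotated as transcribed pseudogenes in the C57BL/6J assembly GRCm38.p6, a strain known to carry defective Mx alleles. Whether the 1 probe set of each gene matches the transcript made in these cells was not tested.

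**Figure D1:**
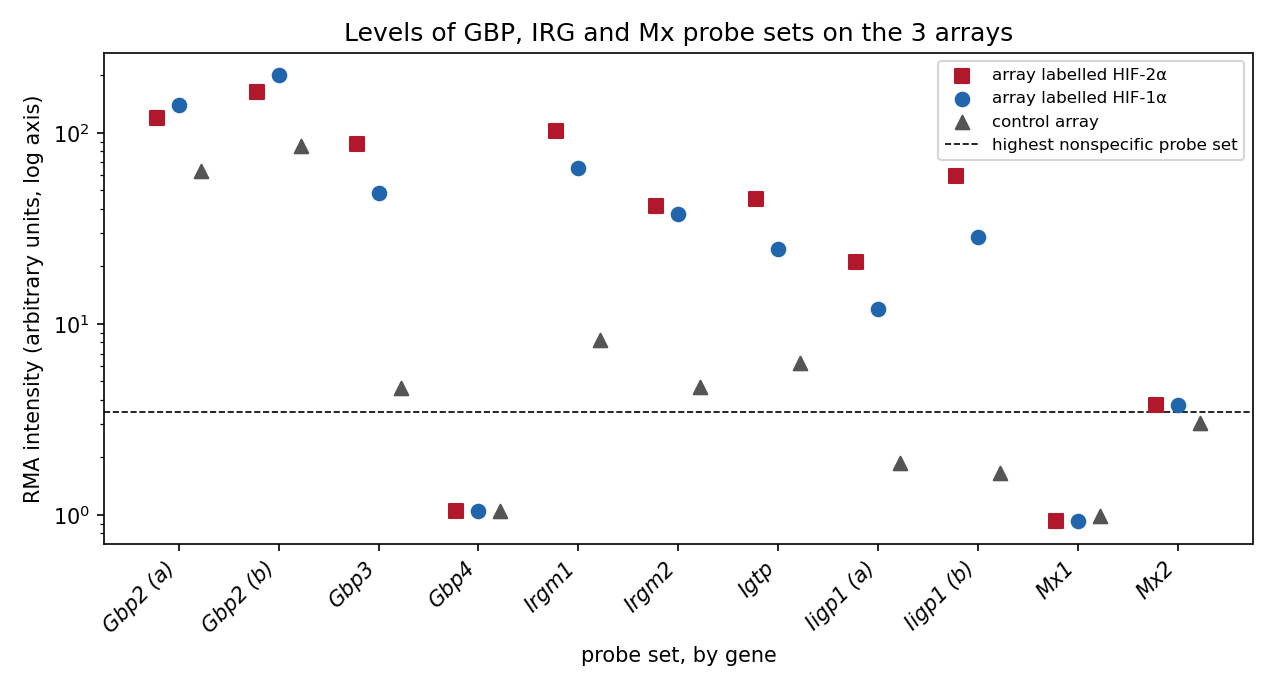
RMA intensity (log axis) of the 11 probe sets of the members, with 1 point for each of the arrays labelled HIF-2α and HIF-1α and the control array. The dashed line is the nonspecific level of 3.47, and (a) and (b) are the probe sets of 1 gene. The control array is lowest for every probe set of Gbp2, Gbp3, Irgm1, Irgm2, Igtp and Iigp1, while Gbp4 and Mx1 lie under the line on all arrays.

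A rule of size stood in for a test. The members were chosen with earlier results of these data known, so their counts beside the shares of all genes are a description only. Each gene was represented by its brightest probe set, values under 3.47 were raised to 3.47, and a gene was counted when the resulting fold reached 2. On the array labelled HIF-2α 5 of the 10 members were at least 2-fold higher than control and none was lower, against 3.96% of all 17097 genes that were higher and 0.269% that were lower. The 5 were Gbp3, Iigp1, Irgm1, Irgm2 and Igtp. Of the other 5, Gbp2, Gbp4, Mx1 and Mx2 were not past 2-fold and Gbp6 had no probe set. With the HIF-1α hairpin the count was 6 of 10 higher and none lower, the same 5 genes and Gbp2, against 2.1% of all genes that were higher and 0.0292% that were lower. Genes under the nonspecific level on every array can never be counted. Among the 8917 genes above it on at least 1 array, 7.59% (HIF-2α) and 4.03% (HIF-1α) were at least 2-fold higher than control. The members' median log2 difference, over the 9 with a probe set, was 2.85 on the array labelled HIF-2α and 1.98 on the array labelled HIF-1α, with a median of 0 over all genes in each comparison. With 32 added before log2, the HIF-1α count became 2 of 10, Gbp3 and Irgm1, and the share of all genes 0.0994%. The HIF-2α count stayed at 5, against 0.199% of all genes. The members' medians became 1.00 (HIF-2α) and 0.77 (HIF-1α). These comparisons share the control array, so their likeness is no separate result.

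The control array was dimmer than the others over part of its range. Among the 8917 genes above the nonspecific level on at least 1 array, the median log2 difference was 0.14 on the array labelled HIF-2α and 0.10 on the array labelled HIF-1α, and cyclic loess scaling reduced these to 0.02 and 0.01. Dim genes were past 2-fold more often: of 2864 genes between the nonspecific level and 16 on the control array, 16.6% were at least 2-fold higher with the HIF-2α hairpin and 9.25% with the HIF-1α hairpin. Gbp3, Irgm1, Irgm2 and Igtp lay in this range, which was singled out after their values were seen. The 8257 genes above the nonspecific level on both the array labelled HIF-2α and the control array were ordered from the highest difference down. Gbp3 took rank 2, Irgm1 rank 8, Irgm2 rank 11, Igtp rank 15 and Gbp2 rank 605. With the HIF-1α hairpin the ranks among 8269 such genes were 3 for Gbp3, 5 for Irgm2, 6 for Irgm1, 25 for Igtp and 141 for Gbp2. Iigp1 has no rank, since its differences from control are lower bounds. After cyclic loess 5 members with the HIF-2α hairpin and 6 with the HIF-1α hairpin were again at least 2-fold higher than control. The shares of all genes were then 2.47% (HIF-2α) and 1.33% (HIF-1α).

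**Figure D2:**
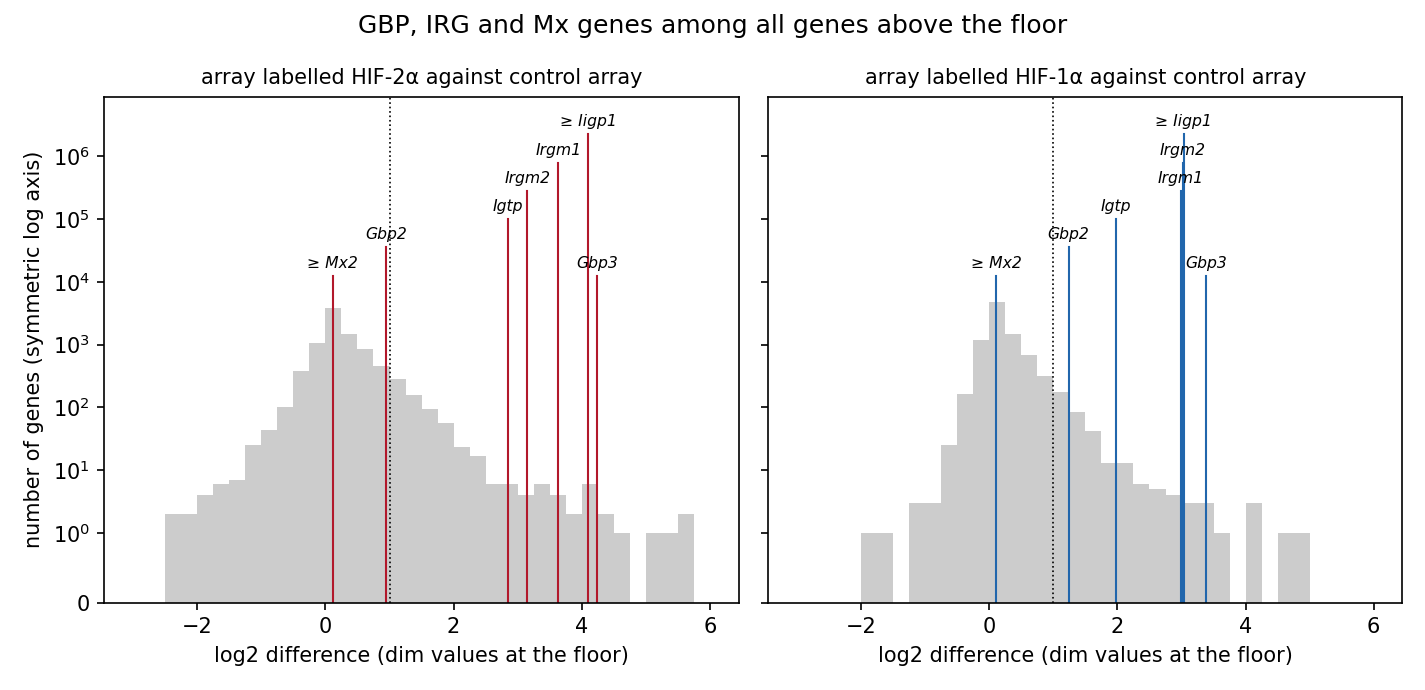
Number of genes (symmetric log axis) by log2 difference from control, for the 8917 genes above the nonspecific level on at least 1 array, with the array labelled HIF-2α on the left and the array labelled HIF-1α on the right. Vertical coloured lines mark the members with a probe set, apart from Gbp4 and Mx1, which were under the nonspecific level on all arrays. The sign ≥ marks a lower bound, and the dotted line marks 2-fold. Gbp3, Iigp1, Irgm1, Irgm2 and Igtp lie in the sparse upper tail on both sides. Gbp2 lies near the dotted line, at 0.95 on the left and 1.24 on the right, and Mx2 lies at 0.11 on both sides.

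Setting the hairpin arrays against each other leaves out the control array and separates the members. Iigp1 was 2.09-fold higher on the array labelled HIF-2α than on that labelled HIF-1α by its brighter probe set and 1.76-fold by the other. Igtp was 1.83-fold higher, Gbp3 1.81-fold, Irgm1 1.56-fold and Irgm2 1.10-fold. Gbp2 was lower on the array labelled HIF-2α by both probe sets, with log2 differences of −0.29 and −0.22. Gbp4, Mx1 and Mx2 were equal on these arrays. By the count, 1 of 10 members, Iigp1, was at least 2-fold higher and none lower, against 0.614% of all genes that were higher and 0.433% that were lower. The count is 0 when the mean of the Iigp1 probe sets is used or 32 is added before log2. The shares of all genes that were higher were then 0.404% (mean of probe sets) and 0.0234% (32 added). The median over the 9 members was 0.13, beside 0 over all genes. Across 1479 genes with several probe sets of at least 16 on every array, the pooled SD between probe sets of 1 gene was 0.15 on the log2 scale for this comparison. The difference of Irgm2 was smaller than that spread, and those of Gbp2, Irgm1, Gbp3, Igtp and Iigp1 were larger. The spread covers probe sets on the same arrays and says nothing of cultures.

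**Figure D3:**
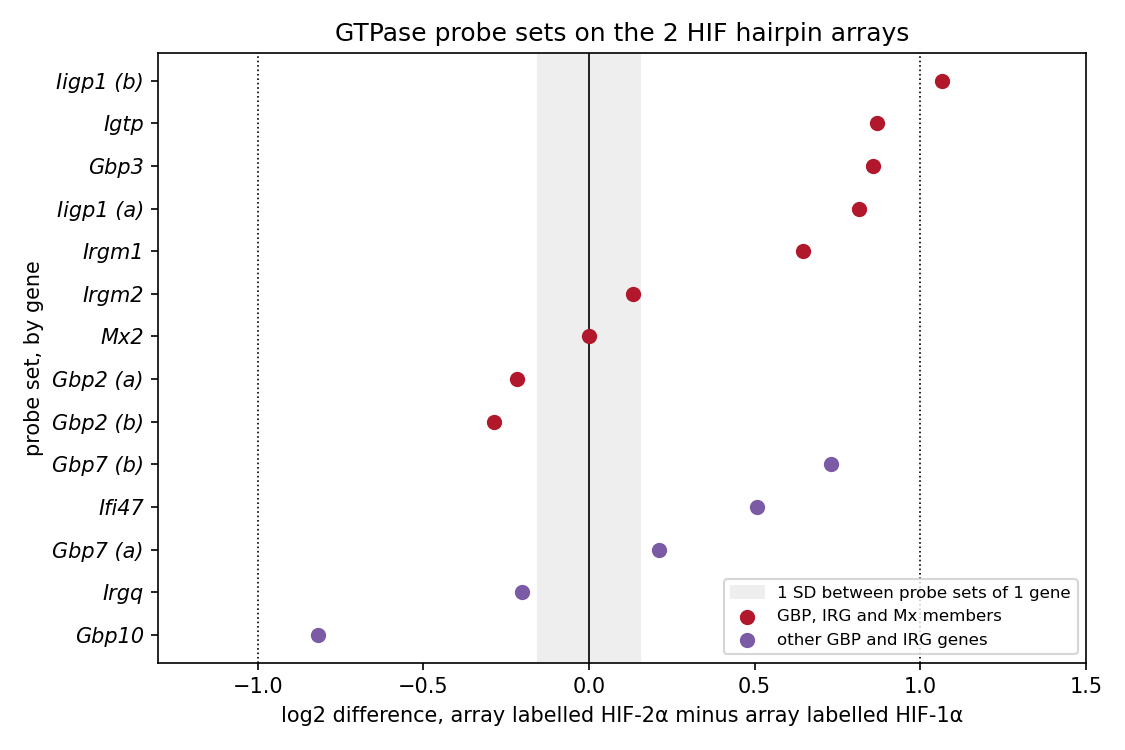
Log2 difference (array labelled HIF-2α minus array labelled HIF-1α) for each GTPase probe set above the nonspecific level on at least 1 array, members in red and other GBP and IRG genes in purple. The grey band is 1 SD (0.15) between probe sets of 1 gene and dotted lines mark 2-fold. Both Gbp2 probe sets, Gbp10 and Irgq lie left of the band, whereas Iigp1, Igtp, Gbp3 and Irgm1 lie right of it.

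Other genes of the same families, taken from lists that hold no member, were mostly dim. Of 7 further GBP genes 4 had a probe set, and 2 of these were at least 2-fold higher on each hairpin array. The shares of all genes were 3.96% (HIF-2α) and 2.1% (HIF-1α). Gbp7 read 27.1 on the array labelled HIF-2α, 16.4 on the array labelled HIF-1α and 1.61 on the control array, at least 7.82-fold (HIF-2α) and at least 4.71-fold (HIF-1α) higher than control. Gbp10 read 9.37 (HIF-2α), 16.5 (HIF-1α) and 1.99 (control), at least 2.70-fold (HIF-2α) and at least 4.75-fold (HIF-1α) higher. The other Gbp7 probe set read 21.9 (HIF-2α), 18.9 (HIF-1α) and 1.49 (control), and the other Gbp10 probe set was under the nonspecific level. Gbp10 thus shared with Gbp2 the higher value on the array labelled HIF-1α, while Gbp7 had the order of Gbp3. Gbp6 is a close relative beside Gbp10 on chromosome 5, and whether the Gbp10 probe sets also detect its transcripts was not tested. Gbp2b and Gbp8 were under the nonspecific level on all arrays.

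Of 12 further IRG and giant GTPase genes 5 had a probe set. Ifi47, which encodes the IRG protein Irgd, read 10.04 on the array labelled HIF-2α, 7.07 on the array labelled HIF-1α and 4.64 on the control array, 2.16-fold (HIF-2α) and 1.52-fold (HIF-1α) higher than control. Irgq, an IRG-like gene that is not known as interferon-inducible, ran the other way, at 33.3 (HIF-2α), 38.3 (HIF-1α) and 49.8 (control), with log2 differences from control of −0.58 (HIF-2α) and −0.38 (HIF-1α). Tgtp1, Gm12185 and Irgc1 were under the nonspecific level throughout. No further IRG gene was past 2-fold with the HIF-1α hairpin, and 1 was with the HIF-2α hairpin. Over all genes 2.1% (HIF-1α) and 3.96% (HIF-2α) were at least 2-fold higher. Ifi47 lay between the nonspecific level and 16 on the control array, where the shares were 9.25% (HIF-1α) and 16.6% (HIF-2α).

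Transcripts of the interferons themselves were not above background. None of the 9 ligand genes with a probe set, Ifnb1 and Ifng among them, was above the nonspecific level on any array; the brightest value was 1.35 on each array. Receptors and kinases were present and differed little: 8 of 9 genes were above the nonspecific level, and 1, the kinase gene Tyk2, was past 2-fold, at 19.8 on the array labelled HIF-2α, 23.1 on the array labelled HIF-1α and 9.77 on the control array. Over all genes 3.96% (HIF-2α) and 2.1% (HIF-1α) were at least 2-fold higher than control. Tyk2 lay between the nonspecific level and 16 on the control array, where the shares were 16.6% (HIF-2α) and 9.25% (HIF-1α). Ifngr1, the ligand-binding interferon-γ receptor chain, read 42.3 on all arrays. Ifnar2, the corresponding type I chain, read 192.3 (HIF-2α), 220.6 (HIF-1α) and 198 (control).

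Among transcription factors of the pathway 3 of 9 were at least 2-fold higher on each hairpin array. The shares of all genes were 3.96% (HIF-2α) and 2.1% (HIF-1α). Irf9, the DNA-binding part of the ISRE complex, read 60.4 on the array labelled HIF-2α, 48.3 on the array labelled HIF-1α and 7.74 on the control array, 7.81-fold (HIF-2α) and 6.24-fold (HIF-1α) higher. Stat2, which codes for another part of that complex, was at least 4.92-fold (HIF-2α) and at least 3.56-fold (HIF-1α) higher. Irf7, which amplifies type I interferon, was 18.04-fold (HIF-2α) and 7.07-fold (HIF-1α) higher. Irf9 and Irf7 lay between the nonspecific level and 16 on the control array. In that range 16.6% (HIF-2α) and 9.25% (HIF-1α) of genes were at least 2-fold higher. Irf1, a factor that interferon-γ induces and that binds ISRE-like sites, read 18.7 (HIF-2α), 18.7 (HIF-1α) and 10.6 (control) and was under 2-fold. Of 6 genes that restrain the pathway 1, Usp18, was past 2-fold, at least 42.4-fold (HIF-2α) and at least 18.9-fold (HIF-1α) higher. Socs1 read 1.35 on every array, under the nonspecific level, so no fold can be given for it.

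Lists of genes known for each type of interferon were counted by the same rule. Of 11 type I antiviral effectors with a probe set, 9 were at least 2-fold higher with the HIF-2α hairpin and 8 with the HIF-1α hairpin. The shares of all genes were 3.96% (HIF-2α) and 2.1% (HIF-1α). The median log2 differences of these effectors were at least 2.99 (HIF-2α) and at least 2.01 (HIF-1α), or 3.43 (HIF-2α) and 2.51 (HIF-1α) with no value raised. Ifit1, whose protein binds viral RNA, was at least 53.7-fold (HIF-2α) and at least 27.0-fold (HIF-1α) higher than control. Its relatives were Ifit3, at least 35.7-fold (HIF-2α) and at least 17.8-fold (HIF-1α) higher, and Ifit2, 2.64-fold (HIF-2α) and 2.37-fold (HIF-1α) higher. Zbp1, a sensor of nucleic acids, was at least 21.5-fold (HIF-2α) and at least 9.97-fold (HIF-1α) higher, and Oasl2 at least 7.92-fold (HIF-2α) and at least 4.03-fold (HIF-1α). Cmpk2, a mitochondrial nucleotide kinase, was at least 3.08-fold (HIF-2α) and at least 1.41-fold (HIF-1α) higher. In these effectors the log2 difference between hairpins had a median of 0.97. On the array labelled HIF-2α 3 genes (Rsad2, Cmpk2 and Zbp1) were at least 2-fold higher, against 0.614% of all genes. Rsad2 (viperin) had the widest gap, at 64.04 on the array labelled HIF-2α, 11.4 on the array labelled HIF-1α and 1.24 on the control array. Eif2ak2, the RNA-activated kinase PKR, read 33.9 (HIF-2α), 35.5 (HIF-1α) and 8.62 (control) and so was near equal on the hairpin arrays, as was Irgm2. Of 10 genes known mainly for induction by interferon-γ, 0 were counted past 2-fold in any of the comparisons. That is near the shares of all genes, 3.96% (HIF-2α) and 2.1% (HIF-1α), so the count cannot tell the types of interferon apart. Genes under the nonspecific level on every array could not be counted, and 3 of the 10 were above it on any array. These were Cxcl9, a T-cell chemokine, at 5.05 (HIF-2α), 6.71 (HIF-1α) and 2.60 (control), Nos2, inducible nitric oxide synthase, at 8.94 (HIF-2α), 16.7 (HIF-1α) and 10.8 (control), and H2-Ab1, an MHC class II chain on a shared probe set, at 63.3 (HIF-2α), 60.4 (HIF-1α) and 101.1 (control). Cxcl9 was under the nonspecific level on the control array, so its differences are bounds of at least 1.45-fold (HIF-2α) and at least 1.93-fold (HIF-1α), and whether it reached 2-fold cannot be said. Ciita, the class II transactivator, stayed under the nonspecific level. The lists were not tested against each other.

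**Figure D4:**
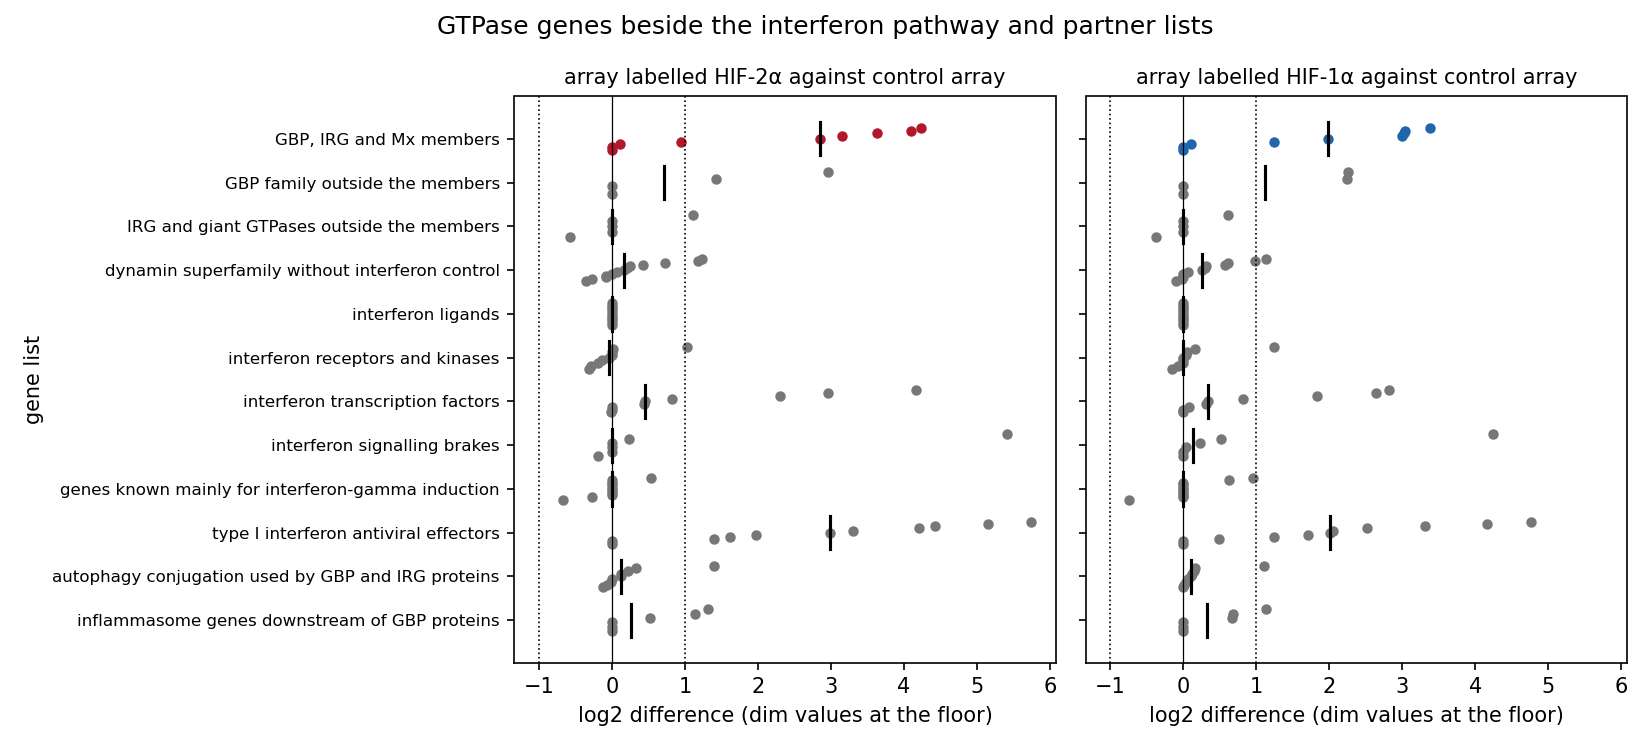
Log2 difference from control of every gene with a probe set in the members' list and 11 other lists, with values under 3.47 raised to it, for the array labelled HIF-2α (left) and the array labelled HIF-1α (right). Each point is 1 gene, the black bar is the list median, and dotted lines mark 2-fold. The members and the type I effectors have the highest list medians, 2.85 and at least 2.99 on the left and 1.98 and at least 2.01 on the right, and Usp18 lies further right than any member.

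Most genes of the machinery that GBP and IRG proteins use differed little between arrays. Of 9 genes of the autophagy conjugation system, which places these GTPases on vacuoles, all were above the nonspecific level on at least 1 array and 1, Atg7, was past 2-fold on each hairpin array, at 9.17 on the array labelled HIF-2α, 7.45 on the array labelled HIF-1α and 2.01 on the control array. The median log2 difference of the list was 0.12 (HIF-2α) and 0.11 (HIF-1α). Gabarap and Gabarapl2, ubiquitin-like proteins that IRG placement needs in mice, read 380.6 (HIF-2α), 382.8 (HIF-1α) and 385.1 (control) for Gabarap and 123.1 (HIF-2α), 128.3 (HIF-1α) and 123.1 (control) for Gabarapl2. The inflammasome genes that act after GBP proteins open bacteria were mostly dim. Casp4, the caspase that senses bacterial lipopolysaccharide, read 33.3 (HIF-2α), 36.7 (HIF-1α) and 23.2 (control) and was under 2-fold. Casp1, Nlrp3 and Il1b were under the nonspecific level. Pycard, the inflammasome adaptor, was at least 2.48-fold higher with the HIF-2α hairpin and at least 1.61-fold with the HIF-1α hairpin. Il18, a cytokine that inflammasomes mature, was 2.20-fold higher with either. Of 13 dynamin superfamily genes with no known interferon control, 2 (Atl1 and Ehd4) were past 2-fold with the HIF-2α hairpin and 1 (Atl1) with the HIF-1α hairpin. The list medians were 0.17 (HIF-2α) and 0.25 (HIF-1α). Over all genes 3.96% (HIF-2α) and 2.1% (HIF-1α) were at least 2-fold higher. Atl1 and Ehd4 read 5.85 and 9.80 on the control array. In that dim range 16.6% (HIF-2α) and 9.25% (HIF-1α) of genes were at least 2-fold higher.

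The genes whose differences lay nearest to those of the GBP and IRG members were interferon-stimulated genes too. Likeness was measured as the distance, over both log2 differences from control on 3 arrays, to the medians of the 7 GBP and IRG members with a probe set (3.15 with the HIF-2α hairpin and 2.99 with the HIF-1α hairpin), among 8910 other genes. With values under 3.47 raised to it, the 5 nearest were Irf9, Dtx3l, Cxcl10, Xaf1 and Parp9. The distances were 0.40 for Irf9, 0.50 for Xaf1 and 0.55 for Parp9. Dtx3l and Cxcl10 were under the nonspecific level on the control array, at 1.35 and 1.91, so their differences are lower bounds and their place among the nearest rests on the raised values. Dtx3l and Parp9 encode a ubiquitin ligase and its partner, Cxcl10 encodes a T-cell chemokine, and Xaf1 is an apoptosis factor. Xaf1 read 211.2 on the array labelled HIF-2α, 122 on the array labelled HIF-1α and 21.4 on the control array, and Parp9 read 77.0 (HIF-2α), 56.0 (HIF-1α) and 6.10 (control). With 3 arrays the measure describes these arrays alone.

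Markers of other cells that express these GTPases strongly were near background, apart from Cd14 and, on the array labelled HIF-2α, Cd68. Of 10 macrophage markers 2 were above the nonspecific level on the array labelled HIF-2α, 1 on the array labelled HIF-1α and 1 on the control array, and the summed levels were 110.9 (HIF-2α), 100.3 (HIF-1α) and 104.6 (control). Most of each sum was Cd14, at 93.2 (HIF-2α), 87.8 (HIF-1α) and 93.4 (control), while Cd68 read 7.24 (HIF-2α), 3.02 (HIF-1α) and 1.59 (control). Cd68 was at least 2.08-fold higher on the array labelled HIF-2α than on either other array. The pan-leukocyte gene Ptprc read 1.05 on each array. No lymphocyte or dendritic marker, of 9 and 3 with a probe set, was above the nonspecific level. Of 6 endothelial markers 1 was, Egfl7, at 5.45 (HIF-2α), 5.45 (HIF-1α) and 4.64 (control). Some mesenchymal markers were lower on the array labelled HIF-2α. Of the 11 with a probe set, 2 were at least 2-fold lower there than on the control array, against 0.269% of all genes, and 3 were at least 2-fold lower than on the array labelled HIF-1α, against 0.433%. Among the 8917 genes above the nonspecific level on at least 1 array, these shares were 0.516% and 0.83%. Cxcl12, a chemokine that retains blood stem cells, read 72.3 (HIF-2α), 177.9 (HIF-1α) and 249.96 (control), 3.46-fold lower with the HIF-2α hairpin than in control. Col1a1, a collagen chain, read 48.1 (HIF-2α), 126.9 (HIF-1α) and 130.4 (control), 2.71-fold lower with the HIF-2α hairpin than in control. Pdgfrb read 6.95 (HIF-2α), 14.6 (HIF-1α) and 7.88 (control). No mesenchymal marker was past 2-fold between the array labelled HIF-1α and control. The part of these marker differences in the GTPase values was not tested.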

How the data were processed

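Biotin-labelled cRNA from 1 µg of total RNA was hybridised to 1 single-colour oligonucleotide array for each shRNA, per the labels' protocols, and each array was assigned to its group by its title. The authors deposited RMA intensities on a linear scale. Per the submitters' processing notes the tool was RMA, with no version or settings stated. The method summarises probe sets over all arrays together, and 32.1% of the 16765 probe sets above the nonspecific level on an array were exactly equal between the hairpin arrays, so small differences may not be recorded. No scaling was added. Of the probe sets, 28898 had 1 gene, 551 several and 15588 none (104 controls left out), and 28689 were matched by Entrez identifier to RefSeq (GRCm38.p6) for names. Log2 differences, counts and promoter matches were computed in Python 3.11.15 with pandas 2.3.3, and cyclic loess in limma 3.58.1 (R 4.3.3). With 1 array a group no p-value is given. The number of arrays limits the precision.

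The members and lists were chosen with earlier results of these data known. The text names all members, the genes of each list past 2-fold or else its brightest, markers, and the 5 genes of nearest pattern; further list genes were named for their role. Alternatives were the mean of a gene's probe sets, no shared probe sets, 32 added before log2, cyclic loess, 2 other floors and minimums of 16 and 64.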

Additional observations from a re-analysis of the deposited data

How the results depend on the processing

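Of 189 values of single members recomputed under 8 alternatives, 183 kept their side of 2-fold and 6 came under it, and no value past 2-fold changed sign. Many of the 183 could not have moved, so the tally is no measure of robustness. The minimums only drop genes, averaging leaves members with 1 probe set unchanged, and Gbp4, Mx1 and Mx2 lay near or under the nonspecific level. The 6 arose with 32 added or with the mean of the Iigp1 probe sets. With 32 added before log2, which shrinks folds of dim genes by construction, the members at least 2-fold higher than control stayed at 5 with the HIF-2α hairpin, became 2 with the HIF-1α hairpin (Gbp3 and Irgm1) and became 0 between the hairpin arrays, and the medians against control became 1.00 and 0.77. Averaging a gene's probe sets gave 0 members past 2-fold between the hairpin arrays. Cyclic loess gave a median of 1.82 with the HIF-1α hairpin. Minimums on brightness leave fewer members by construction. At 16 the medians were 3.39 with the HIF-2α hairpin, 3.004 with the HIF-1α hairpin and 0.75 between the hairpin arrays. At 64 the counts in the same order were 2, 3 and 0 of the 3 members left, and the medians 3.64, 2.99 and 0.65. The counts over all genes moved more: genes at least 2-fold higher than control numbered 677 and 359 as reported with the HIF-2α and HIF-1α hairpins, 423 and 227 after cyclic loess, 433 and 205 with the mean of probe sets, and 34 and 17 with 32 added. Between the hairpin arrays 105 genes were higher as reported, 69 with the mean of probe sets and 4 with 32 added. No paired analysis was possible because each group holds 1 array, and no array could be left out. Signal over background limits Gbp4, Mx1, Mx2 and the control levels of Iigp1.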
